A study of Homo sapiens with 6 samples.

Results

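The small nucleolar RNA (snoRNA) host genes of HT1080 cells were examined. They were the rows of the gene table named SNHG plus a number, together with GAS5, EPB41L4A-AS1, ZFAS1, DANCR and TAF1D, with a total count of at least 10 over the 6 libraries. The names matched 28 of the 60675 rows, and 26 reached that total. Beyond their names, members were selected on this total, which does not use the difference between the compounds. The names themselves were chosen with earlier results of these data known, so shares set beside all tested genes are descriptions. SNHG23 with a total of 3 and SNHG24 with a total of 0 lay outside it, while SNHG9 with 87 and SNHG25 with 150 lay nearest inside. HT1080 is an established human fibrosarcoma line, and the cells were labelled wild type. They received SW-113 or SW-138, which the series describes as inhibitors of the deacetylase HDAC6, at 1 µM for 48 h, with 3 libraries per compound from ribosomal-RNA-depleted total RNA. No vehicle-treated library is among the samples used here, and the only comparison is of one compound with the other: "higher" and "lower" refer to SW-138 relative to SW-113. Whether the libraries of a compound are separate cultures is not labelled. The p-values therefore rest on a spread between libraries that may be technical.

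snoRNAs guide chemical modification of other RNAs, and most human snoRNAs are cut out of the introns of a host gene. Box C/D snoRNAs guide 2'-O-methylation and box H/ACA snoRNAs guide pseudouridylation, mainly of ribosomal RNA. Their relatives in Cajal bodies, the scaRNAs, act on spliceosomal RNAs. Many host genes start with a terminal oligopyrimidine (TOP) stretch like that of ribosomal protein genes. The spliced RNA of several noncoding hosts is degraded by nonsense-mediated decay when ribosomes engage it, so the host's spliced RNA and its snoRNAs can differ widely in amount.

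The start regions of members with a C or T run at or close to the annotated start are shown first, since this is a sequence feature that the choice of members did not use. SNHG5, ZFAS1, SNHG12 and SNHG4 have a C at the start followed by at least 4 C or T. In SNHG1 and SNHG16 the run begins 4 and 3 bases after the start, so they lack that strict form. RefSeq promoters (GRCh38.p14) were found for 22 of the 26 members, and the first listed was used for each gene. Shares over all promoters, given below, count every listed promoter. Each line gives 60 bases on the gene's strand, 5′ to 3′. Base 41 is the annotated start, and capitals mark the longest run of C or T near it.
SNHG1: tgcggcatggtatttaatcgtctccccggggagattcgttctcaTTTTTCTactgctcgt
SNHG16: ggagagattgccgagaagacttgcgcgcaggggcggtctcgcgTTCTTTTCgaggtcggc
SNHG5: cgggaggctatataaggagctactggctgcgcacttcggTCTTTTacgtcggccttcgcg
ZFAS1: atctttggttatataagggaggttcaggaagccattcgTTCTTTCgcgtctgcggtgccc
SNHG12: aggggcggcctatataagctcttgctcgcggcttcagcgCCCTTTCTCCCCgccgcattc
SNHG4: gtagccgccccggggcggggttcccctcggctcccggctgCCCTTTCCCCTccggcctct
SNHG21: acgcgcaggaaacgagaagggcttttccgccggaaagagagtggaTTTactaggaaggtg

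The SNHG1 window lies at chr11:62855866-62855925 on the minus strand and the SNHG16 window at chr17:76557724-76557783 on the plus strand. SNHG21, host of a scaRNA, is shown as the contrast, with a longest run of 3 bases. On the gene's strand, a run of at least 6 C or T within 10 bases of the start was present in 14 of the 22 promoters (63.6%), against 23.1% of 35116 promoters in the same table. A C at the start followed by at least 4 C or T, which often forms part of such a run, was present in 7 of 22 (31.8%), against 4.07% of all promoters. Among the ribosomal protein genes that host snoRNAs, 9 of the 15 with a promoter had that strict form. The E-box letters CACGTG, which read the same on both strands, were sought in a wider region than the lines shown. That region ran from 250 bases before the annotated start to 50 after it. The letters occurred in 1 of the 22 promoters, that of SNHG7 (4.55%), against 7.26% of all promoters. These matches describe the annotated start, and the start used in HT1080 cells was not measured. On the gene's strand, the RefSeq start lay 464 bases from the start of the GENCODE 29 gene model for ZFAS1 and 1259 for SNHG12. It lay 1927 bases away for SNHG20, 42896 for TAF1D and 154975 for SNHG14. The windows of these genes, all but SNHG20 counted among the 14, may not be the start of the gene model that was counted.

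The libraries held 32771670 to 50871623 counts, and the members took 0.155% ± 0.00338 of them in SW-113 and 0.156% ± 0.00240 in SW-138 (SD, n = 3 each). Mesenchymal markers fitted the label of the line: VIM, FN1, CD44, LGALS1, SPARC, S100A6 and CAV1 were abundant, the lowest value among them in any library being 200.1 CPM (counts scaled to the library total), for S100A6. EPCAM, CDH1, KRT19, PTPRC, CD3E, VWF, PECAM1 and SYP stayed at or under 0.39 CPM, and MYOD1 was at 0. The share of counts in stable noncoding RNAs such as 7SL and 7SK was 9.28% ± 0.562 in SW-113 and 7.34% ± 1.15 in SW-138 (SD, n = 3 each). Without these and the mitochondrial genes the same 4 members passed the test described below, with a median log2 fold change of -0.0047 over the 26. In bulk RNA, fewer cells expressing a gene and less RNA per cell cannot be told apart. HDAC6, the stated target of the inhibitors, had 12.4 to 15.4 CPM and did not pass (log2 fold change 0.13; edgeR adjusted p = 0.374).

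Among the 26 members, GAS5, the growth arrest-specific noncoding host, had the highest level per length. Dividing CPM by the median spliced length of its annotated transcripts gave 597 ± 42.9 CPM per kb in SW-113 and 528 ± 5.97 in SW-138 (SD, n = 3 each). SNHG5 followed with 293 ± 5.72 and 268 ± 14.1 CPM per kb. SNHG8 had 157 ± 9.12 and 169 ± 5.81, SNHG16 139 ± 2.67 and 117 ± 4.13, ZFAS1 113 ± 10.0 and 103 ± 1.04, and SNHG1 87.3 ± 7.62 and 114 ± 1.89, each in SW-113 and then SW-138. In SW-138, SNHG16 and SNHG1 lay within each other's spread, so their order there is not resolved. SNHG9, with a mean of 1.12 CPM per kb in SW-113 and 0.785 in SW-138, was the lowest. GAS5 alone held 21.7% of all member counts, and GAS5, SNHG16 and SNHG5 together held 51.4%. The order depends on the length used: with the longest annotated transcript SNHG5 ranked first and GAS5 second, SNHG1 moved from rank 6 to 9, and SNHG14, whose annotated transcripts reach 13074 bases, moved from 9 to 21.

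**Figure D1:**
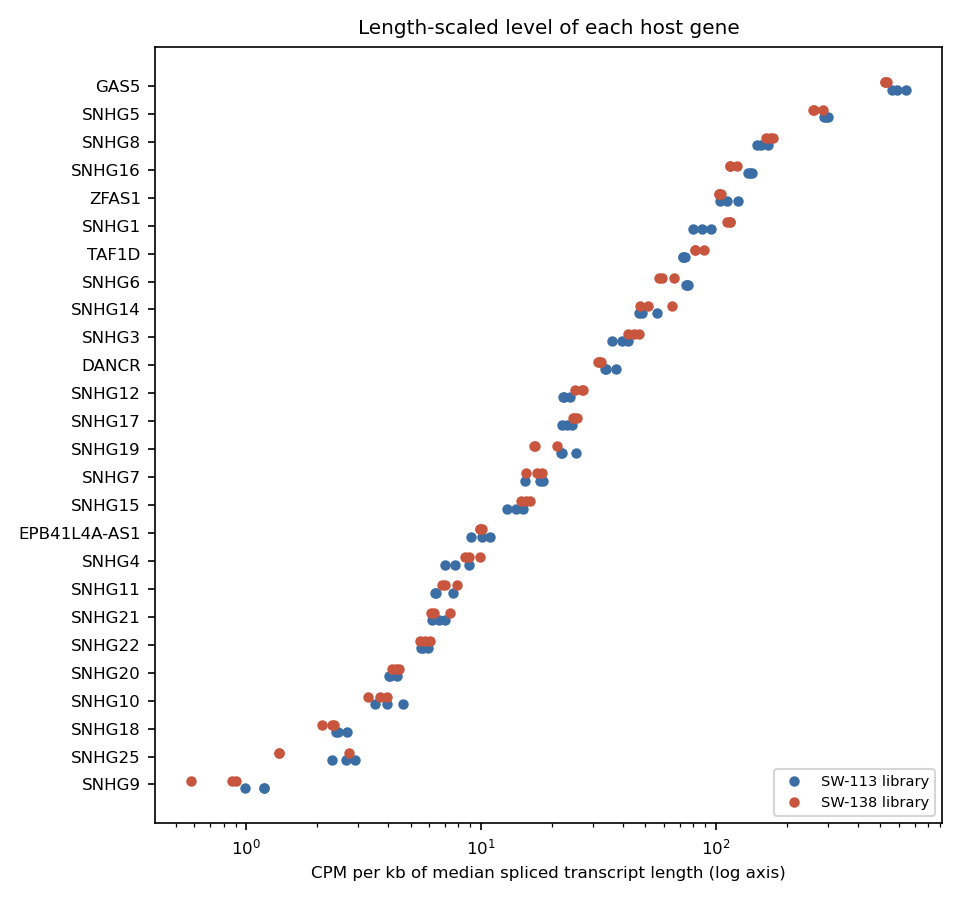
Level of each host gene per kb of median spliced transcript length (CPM per kb, log axis), 1 point per library, SW-113 in blue and SW-138 in red. The members span from SNHG9 near 1 to GAS5 above 500 CPM per kb, and SNHG16 and SNHG1 overlap in SW-138.

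Of the 26 members, 4 passed the test between the compounds (15.4%), against 6.82% of all 16905 genes tested (edgeR quasi-likelihood test, Benjamini-Hochberg adjusted p under 0.05). SNHG1 and TAF1D were higher in SW-138, where 2.76% of all tested genes were higher. SNHG6 and SNHG16 were lower, where 4.06% were lower. Leaving out SW-113 replicate 1, 2 or 3 left 1, 2 and 0 members past the threshold, and leaving out SW-138 replicate 3 left 1. In these fits 3.07%, 2.64%, 1.74% and 3.49% of all tested genes passed. All 26 passed the filter on low counts. With genes kept only at a mean of at least 5 CPM, 4 of 22 members passed (18.2%), against 11.5% of 10898 genes. The members did not move as one group: 13 had positive and 13 negative log2 fold changes, from -0.51 to 0.38, with a median of -0.01 against 0.01 over all tested genes. The 3 libraries of one compound lay wholly above those of the other for 13 members, 5 with SW-138 above and 8 below, against 27.9% of all tested genes (12.4% above and 15.4% below). TAF1D is protein coding; without it, 3 of 25 members passed.

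**Figure D2:**
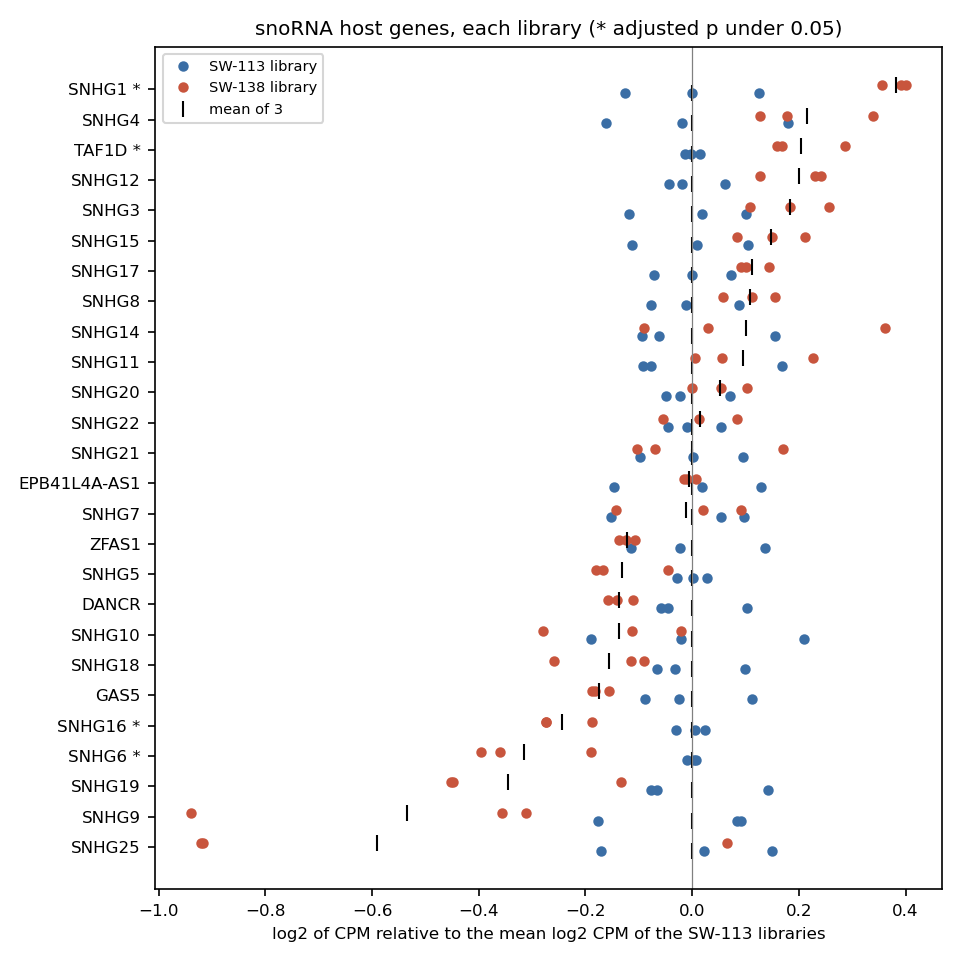
Each library's log2 CPM relative to the mean log2 CPM of the SW-113 libraries, for the 26 host genes ordered by fold change, with black ticks for the mean of 3. SNHG1 (top) and SNHG16 and SNHG6 (near the bottom) show separated groups, while SNHG25 at the bottom has 2 low SW-138 libraries and 1 within the SW-113 range.

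SNHG1, which hosts 9 RefSeq snoRNAs and lies at chr11:62851988-62855914, was the member with the largest rise. Its levels were 72.9, 61.2 and 66.8 CPM in SW-113 and 87.7, 88.2 and 85.5 CPM in SW-138. Every SW-138 library lay above every SW-113 library. The log2 fold change was 0.38 ± 0.06 (SE; 95% interval 0.24 to 0.52), with adjusted p = 0.00861 in edgeR. Leaving out SW-113 replicate 3 brought its adjusted p to 0.0559, with a log2 fold change of 0.38.

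TAF1D, a subunit of the SL1 factor that starts ribosomal RNA transcription by RNA polymerase I, hosts 8 RefSeq snoRNAs, 6 of them box H/ACA. It had 149.8, 152.6 and 150.9 CPM in SW-113 and 184.3, 168.7 and 169.8 CPM in SW-138. The groups did not overlap, and the log2 fold change was 0.21 ± 0.05 (SE; 95% interval 0.10 to 0.32; edgeR adjusted p = 0.0418). This call was lost on leaving out any library other than SW-138 replicate 2, with adjusted p from 0.0686 to 0.153. Its 14 partners listed here, SL1 subunits and RNA polymerase I components, held 0 genes past the threshold in edgeR, DESeq2 and limma-voom, with 2 at an unadjusted edgeR p under 0.05. The smallest p was that of POLR1D (log2 fold change -0.17, adjusted p = 0.0723), a subunit shared with RNA polymerase III.

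SNHG16, host of the box C/D snoRNAs SNORD1A, SNORD1B and SNORD1C at chr17:76557766-76565348, was lower in SW-138. Its levels were 271.8, 265.0 and 275.3 CPM in SW-113 and 237.8, 223.8 and 224.0 CPM in SW-138. The lowest SW-113 library was above the highest SW-138 library. The log2 fold change was -0.24 ± 0.05 (SE; 95% interval -0.35 to -0.14; edgeR adjusted p = 0.0181), or 1.18-fold lower. The call was lost without SW-113 replicate 1 (adjusted p = 0.0670), SW-113 replicate 3 (0.0923) or SW-138 replicate 3 (0.0656). It was also lost with scaling by total count alone, at -0.18 (adjusted p = 0.0657).

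SNHG6, a short host with 1 annotated box C/D snoRNA, was 1.24-fold lower. Its SW-113 libraries were nearly equal at 48.1, 47.6 and 48.2 CPM, and the SW-138 libraries had 42.1, 37.4 and 36.5 CPM. The groups were separate, with a log2 fold change of -0.31 ± 0.06 (SE; 95% interval -0.45 to -0.17; edgeR adjusted p = 0.0166). The call was lost without any 1 of the SW-113 libraries (adjusted p of 0.0645, 0.0576 and 0.0795 for replicates 1 to 3) and without SW-138 replicate 3 (0.0633).

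Members are short: their median spliced length was 760.5 bases, against 2316.5 for all tested genes. When smooth trends with transcript length and GC content were removed from each library, SNHG6 moved to -0.18 and no longer passed (edgeR adjusted p = 0.167). SNHG12, SNHG17 and SNHG8 then passed as higher, with log2 fold changes of 0.31, 0.25 and 0.26 and adjusted p of 0.0132, 0.0462 and 0.0246. SNHG1 (0.48), TAF1D (0.21) and SNHG16 (-0.24) kept their calls. With these offsets 5 members were higher and 1 lower, against 2 and 2 without them, and 6.57% of all tested genes passed.

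**Figure D3:**
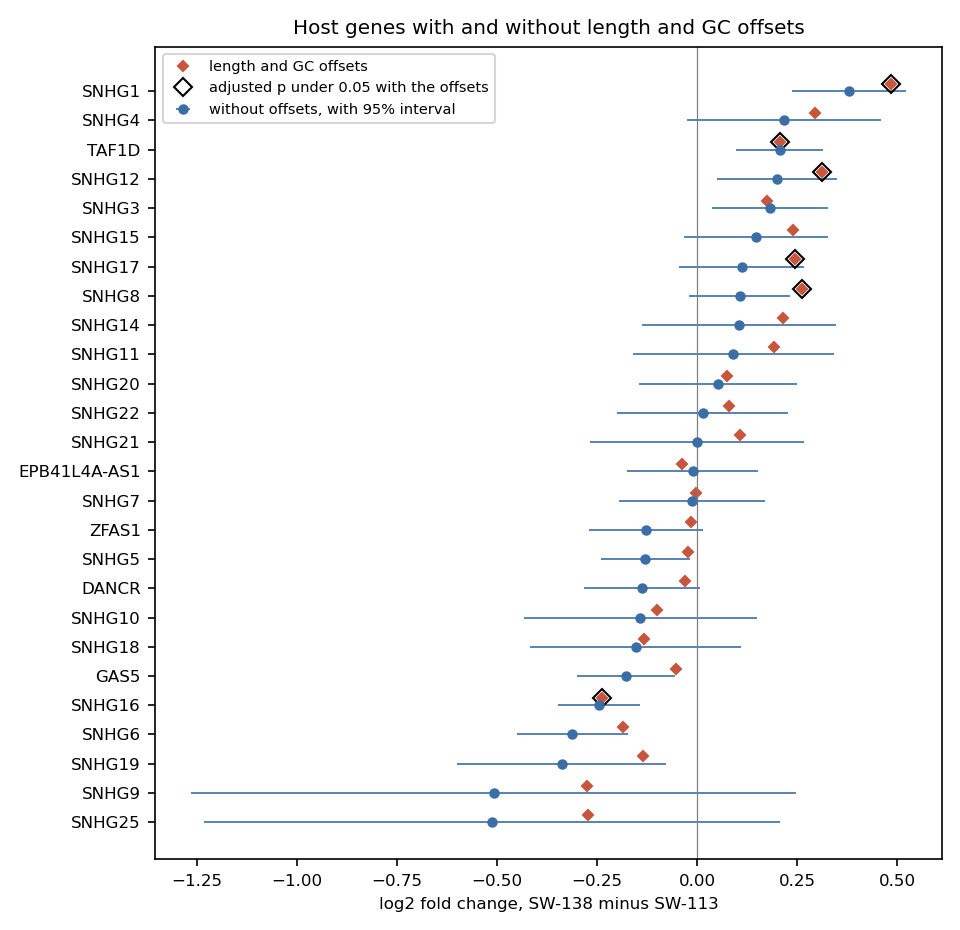
log2 fold change (SW-138 minus SW-113) of each host gene without offsets, with 95% intervals (blue), and with length and GC offsets (red diamonds, outlined where adjusted p is under 0.05). The 6 outlined genes are SNHG1, TAF1D, SNHG12, SNHG17, SNHG8 and SNHG16.

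The 3 most abundant members per length did not pass. GAS5, host of 11 RefSeq snoRNAs, had 350.6, 385.6 and 335.5 CPM in SW-113 and 319.9, 313.2 and 314.4 CPM in SW-138. Its groups did not overlap, and the log2 fold change was -0.18 ± 0.06 (SE; 95% interval -0.30 to -0.05; edgeR adjusted p = 0.105). SNHG5, host of 2 box C/D snoRNAs, had 225.1, 221.1 and 216.5 CPM against 196.7, 194.9 and 214.1 CPM (-0.13 ± 0.05 (SE); adjusted p = 0.186). Its groups were also separate, by a narrow margin. SNHG8, host of a box H/ACA snoRNA, had 73.3, 78.5 and 70.0 CPM against 76.8, 79.8 and 82.2 CPM, with overlapping groups (0.11 ± 0.06 (SE); adjusted p = 0.303). ZFAS1, the fifth by level, had 81.1, 90.6 and 76.1 CPM against 75.6, 74.9 and 76.4 CPM (-0.13 ± 0.06 (SE); adjusted p = 0.279). Its overlap comes from the lowest SW-113 library.

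The other members spread to both sides of 0. SNHG12 and SNHG3, which host mainly H/ACA snoRNAs, had log2 fold changes of 0.20 and 0.18 with separate groups and adjusted p of 0.105 and 0.127 in edgeR. SNHG19, with 8.68, 7.46 and 7.52 CPM against 5.75, 5.77 and 7.17 CPM, had -0.34 (adjusted p = 0.111). SNHG17 had 0.11, and DANCR and SNHG18 had -0.14 and -0.15, each with separate groups. SNHG4, SNHG15, SNHG14, SNHG11 and SNHG20 lay between 0.05 and 0.22, and SNHG22, SNHG21, EPB41L4A-AS1 and SNHG7 between -0.01 and 0.01. SNHG10 had -0.14. SNHG9 and SNHG25 each had -0.51, the lowest values, with separate groups for SNHG9. At under 1 CPM their intervals ran from -1.26 to 0.25 and from -1.23 to 0.21, so neither direction was resolved at this depth.

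By the named snoRNAs within their span in RefSeq, 9 members host box C/D snoRNAs and no other named class, 10 host H/ACA snoRNAs, 3 host both and 4 host scaRNAs. SNHG1, SNHG14 and SNHG17 each hold 1 further snoRNA of no named class. GENCODE 29 also places the H/ACA snoRNA SNORA50C in an exon of SNHG25, counted here as a box C/D host, beyond the end of the shorter RefSeq gene. Members with 1 snoRNA numbered 13. Of the 9 box C/D hosts, 7 had negative log2 fold changes, with a median of -0.15, and 2 were past the threshold as lower (4.06% of all tested genes) and 1, SNHG1, as higher (2.76%). Of the 10 H/ACA hosts, 6 had positive values, with a median of 0.10, and 0 passed the threshold in edgeR, DESeq2 and limma-voom, with 1, SNHG3, at an unadjusted edgeR p under 0.05. With length and GC offsets the H/ACA hosts had 2 higher calls, SNHG17 and SNHG8, and the box C/D hosts 1 higher and 1 lower, the call of SNHG6 being lost. The difference between these classes was not tested. Over the 26 members, Spearman's rho of the log2 fold change was 0.55 with the largest number of exons in a transcript, 0.43 with the number of snoRNAs, 0.38 with transcript length and -0.15 with GC content. These describe genes measured in the same 6 libraries.

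Little of the snoRNAs themselves was counted. GENCODE 29 types 143 rows of the table as snoRNA or scaRNA inside a member on its strand, 84 of them in SNHG14, and 6 had any counts. Those 6 are 187 to 275 bases long, and the 137 listed at 0 are 59 to 144 bases long. Over all 989 such rows in the table, 26 had counts and the shortest of these was 180 bases; 891 rows were shorter. A row listed at 0 here is therefore no measure of the snoRNA. The box C/D snoRNAs SNORD27 of SNHG1 (chr11:62855012-62855083, minus strand) and SNORD1B of SNHG16 (chr17:76561109-76561192, plus strand) are printed as examples of rows listed at 0. SNORA73A (chr1:28507366-28507571) and SNORA73B (chr1:28508559-28508762) of SNHG3, both on the plus strand, are printed as examples of counted rows. SNORD1B and SNORA73B lie within introns, while SNORD27 and SNORA73A overlap an exon of an annotated transcript of their host. Such exon overlap is annotated for snoRNAs of SNHG1, TAF1D, SNHG16 and SNHG6. The counts of these hosts may therefore include RNA that still holds a snoRNA, which was not tested. The sequences are GENCODE 29 transcripts on GRCh38, with the letters TGATGA (C box) and CTGA (D box), or ACA (H/ACA), in capitals.
SNORD27: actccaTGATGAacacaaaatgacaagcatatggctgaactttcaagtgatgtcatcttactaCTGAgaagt
SNORD1B: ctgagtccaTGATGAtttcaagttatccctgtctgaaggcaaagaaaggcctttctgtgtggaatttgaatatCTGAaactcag
SNORA73A: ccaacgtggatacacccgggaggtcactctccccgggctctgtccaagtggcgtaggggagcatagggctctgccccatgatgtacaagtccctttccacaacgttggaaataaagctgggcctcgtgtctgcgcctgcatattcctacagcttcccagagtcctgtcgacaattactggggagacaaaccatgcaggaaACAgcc
SNORA73B: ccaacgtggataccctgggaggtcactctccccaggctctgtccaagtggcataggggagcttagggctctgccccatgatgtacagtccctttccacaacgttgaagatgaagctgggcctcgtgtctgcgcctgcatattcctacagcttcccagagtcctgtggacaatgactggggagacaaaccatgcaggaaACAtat

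**Figure D4:**
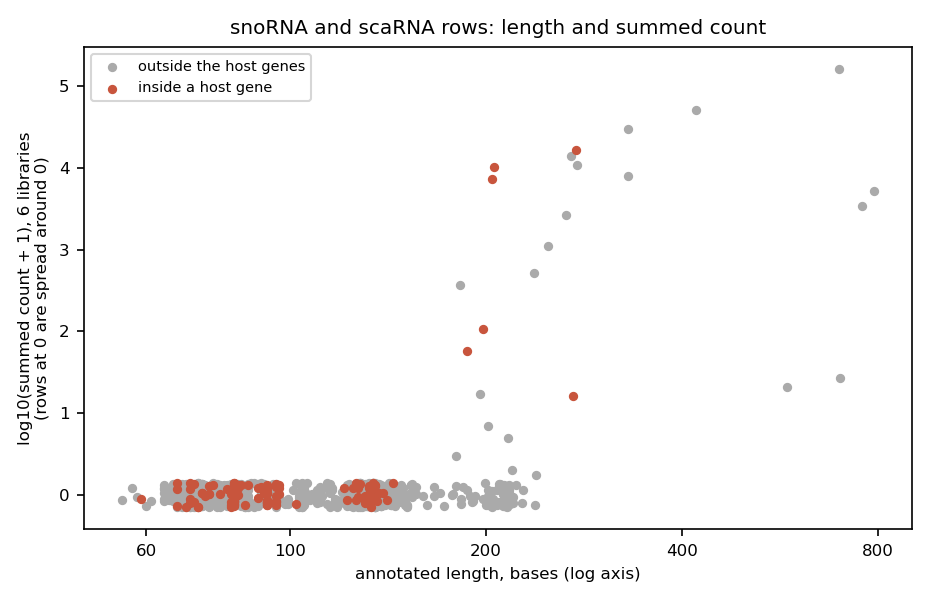
Annotated length (bases, log axis) of the 989 snoRNA and scaRNA rows against log10 of the summed count plus 1, with rows inside a host gene in red and rows at 0 spread around 0. The 6 red rows with counts are all at least 187 bases long, and the 137 red rows at 0 are at most 144 bases.

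SNORA73A and SNORA73B share 192 identical bases, or 93.2% identity, so reads divided between them by estimation are uncertain. SNORA73B had 33.3, 34.6 and 34.8 CPM in SW-113 and 19.5, 22.9 and 33.8 CPM in SW-138, with overlapping groups because SW-138 replicate 3 lay within the SW-113 range (log2 fold change -0.43; edgeR adjusted p = 0.134). SNORA73A had 49.5, 47.4 and 44.0 CPM against 26.4, 33.7 and 55.3 CPM (-0.29; adjusted p = 0.446). Their host SNHG3 had 92.6, 79.5 and 87.4 CPM in SW-113 and 103.1, 93.1 and 98.1 CPM in SW-138, so its value pointed the other way. SCARNA13, the scaRNA in SNHG10, had 74.0, 76.9 and 71.1 CPM against 57.0, 64.6 and 67.7 CPM. All SW-138 libraries were below all SW-113 libraries, without passing (log2 fold change -0.23; edgeR adjusted p = 0.0703). The other 3 counted rows had totals of 106 (SNORA74A), 57.1 (SCARNA16) and 15 (SNORA71B).

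Among the other genes annotated over a member, 2 passed the test. MATR3, a nuclear matrix protein gene, shares 626 exon bases on the same strand with SNHG4 and was lower (log2 fold change -0.35; edgeR adjusted p = 0.0327), while SNHG4 had 0.22. MYO5B, a motor protein gene opposite SNHG22 with 229 shared exon bases, was higher (0.27; adjusted p = 0.0198), while SNHG22 had 0.01. The values of such pairs are uncertain, because reads from shared exons can be given to either gene and the strand setting is not given in the sources used here. RCC1 over SNHG3 (-0.10), GLRX5 over SNHG10 (-0.17), ZNFX1 over ZFAS1 (-0.08) and SEC14L1 over SNHG20 (0.09) did not pass. On the opposite strand, TAF1D shares exon bases with CEP295 (250), C11orf54 (173) and MED17 (88), and SNHG6 shares 365 with MCMDC2. SNHG14 shares 198 with UBE3A on the opposite strand and 141 with SNRPN on its own strand. None of these genes passed, and the values of TAF1D and SNHG6 are uncertain in the same way. On the same strand, a processed transcript listed as SCARNA15 shares 768 exon bases with SNHG21, and RP11-701H24.4 shares 1236 with SNHG14. Neither passed (log2 fold changes -0.02 and 0.01), and the values of SNHG21 and SNHG14 carry the same uncertainty.

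Other snoRNA hosts and TOP genes were compared by list, with the same fit, in which 4.06% of all tested genes were lower and 2.76% higher. Of 23 ribosomal protein genes that host snoRNAs, 19 were lower, 0 higher and 4 did not pass, with a median of -0.31, against the members' -0.01. RPS12 and RPS13 had -0.39 and -0.35. The median length of these genes was 783 bases, near that of the members. With length and GC offsets 9 of the 23 were lower and their median was -0.20, where 6.57% of all tested genes passed. Leaving out 1 library gave 11 (without SW-113 replicate 3), 12 (without SW-113 replicate 2) or up to 19. In the fits without 1 library, 1.74% (without SW-113 replicate 3) to 9.39% (without SW-138 replicate 2) of all tested genes passed. Of 18 genes listed as TOP genes outside the ribosome, 5 were lower and 0 higher, among them TPT1 (-0.42), the elongation factor subunit EEF1B2 (-0.35) and the cyclin gene CCNG1 (-0.38). Leaving out SW-113 replicate 2, SW-113 replicate 3, SW-138 replicate 1 or SW-138 replicate 3 left 3. Of 28 other protein-coding hosts, 3 were lower and 0 higher, with a median of 0.01: the chaperone gene HSPA8 (-0.32), TPT1 and RACK1 (-0.23), of which the TOP list also holds TPT1 and RACK1. Without SW-113 replicate 3, 1 of the 28 was past the threshold. Other long noncoding genes passed in 41 of 2056 cases (1.99%), with 28 higher and 13 lower. Many of these genes had low counts. With genes kept at a mean of at least 5 CPM, 30 of 291 passed (10.3%), against 4 of 22 members (18.2%).

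**Figure D5:**
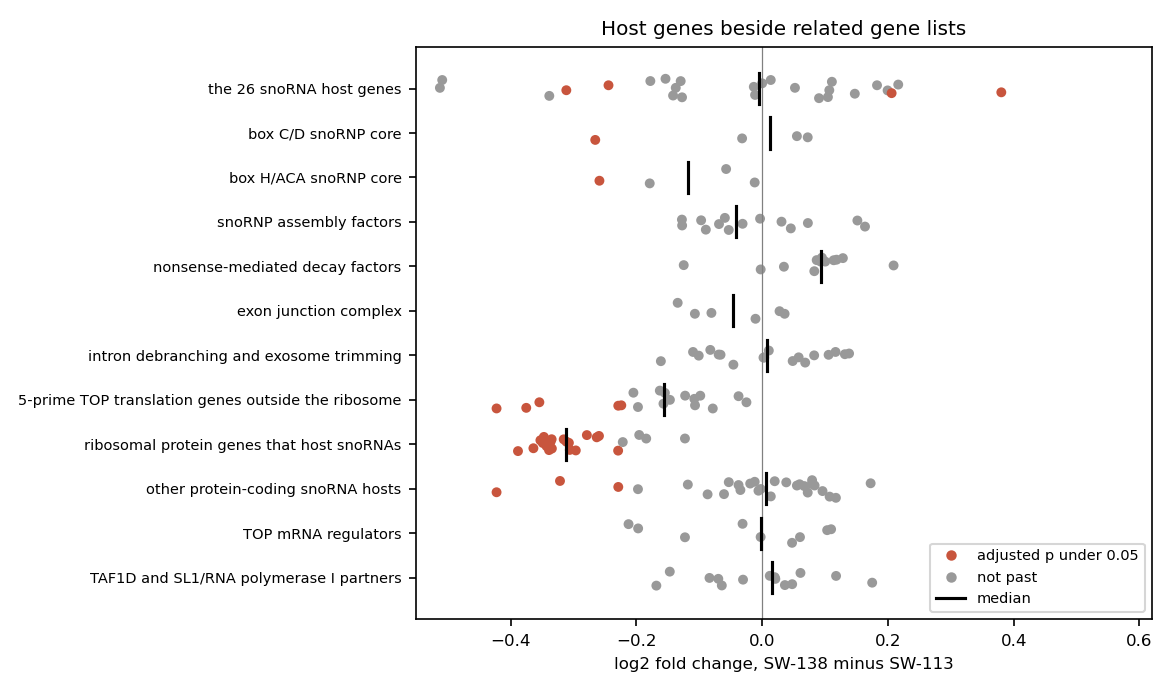
log2 fold change (SW-138 minus SW-113) of the 26 host genes and of each related list, 1 point per gene, red where adjusted p is under 0.05, with a black line at the median. The host genes are centred near 0 with points on both sides, while all 23 ribosomal protein hosts lie below 0.

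The proteins that assemble on snoRNAs and process them mostly did not pass. Of the 4 box C/D core proteins, SNU13 was lower (log2 fold change -0.27; edgeR adjusted p = 0.0156), and FBL, the methyltransferase, had -0.03. Of the 4 H/ACA core proteins, NHP2 was lower (-0.26; adjusted p = 0.0289), and DKC1, the pseudouridine synthase, had -0.01. With length and GC offsets neither core list held a gene past the threshold. Leaving out SW-113 replicate 2, SW-113 replicate 3, SW-138 replicate 1 or SW-138 replicate 3 also ended the call of SNU13, and that of NHP2 stayed past only without SW-138 replicate 2. With the replicate number added to the fit as a block, the box C/D list held 1 gene lower and the H/ACA list 2. Block and offsets together left 1 lower in each. The lists of 14 assembly factors, 12 nonsense-mediated decay factors, 6 exon junction proteins, 18 debranching and exosome genes and 9 TOP regulators held 0 genes past the threshold in edgeR, DESeq2 and limma-voom. With total count alone 1 assembly factor and 1 decay factor were higher, and with length and GC offsets 1 TOP regulator was lower. A mean of at least 5 CPM gave 1 decay factor higher, and genes kept at 1 count in 1 library gave 2 TOP regulators lower. Adding the replicate number to the fit as a block gave 1 decay factor higher and 2 TOP regulators lower. Block and offsets together gave 1 decay factor higher and 1 TOP regulator lower. At an unadjusted edgeR p under 0.05 in the main fit, these lists held 2, 2, 1, 2 and 3, in the order named. The decay factors had a median of 0.09, with SMG9 at 0.21 (adjusted p = 0.0639) and UPF1, the central helicase, at 0.10.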

How the data were processed

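RNA from HT1080 cells was measured in 6 libraries. The authors deposited 1 table of expected counts per gene, and 0 columns of other samples were present. Build GRCh38 and the tools RSEM 1.3.3, Bowtie2 2.5.4, Trimmomatic 0.39 and DESeq2 1.42.0 are listed without role or order, per the submitters' processing notes. Annotation, filters and strand setting are not given in the sources used here. RSEM divides reads among near-identical genes.

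After rounding of the expected counts, 16905 genes passed edgeR's filterByExpr. The compounds were compared with edgeR 4.0.16 (TMM scaling, quasi-likelihood test, no block, Benjamini-Hochberg over all tested genes at 0.05) in R 4.3.3. Standard errors and 95% intervals used limma-voom (limma 3.58.1). CPM used TMM-scaled totals. Gene models came from GENCODE 29 and host counts from RefSeq. The fit was run on simulated data, where the pass mark concerned larger changes than those called in the members, so it does not bear on their calls. Members and lists were chosen with earlier results of these data known. Named were all members, list genes with the smallest p, some of the genes overlapping a member, and HDAC6. Every library's value was given for members past the threshold or among the 6 highest per length. Alternatives were other scalings, filters and tools (DESeq2 1.42.0, limma-voom), a replicate block, length and GC offsets, leaving out libraries and stable genes and, chosen after seeing the data, added older-named SNHG rows.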

Additional observations from a re-analysis of the deposited data

How the results depend on the processing

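The 4 members past the threshold were the same genes with DESeq2 size factors, DESeq2, limma-voom, a mean of at least 5 CPM and without mitochondrial and stable noncoding genes. Genes kept at 1 count in 1 library gave 6 (23.1%), adding GAS5 and SNHG19, against 6.54% of the 31501 genes then tested. Total count alone moved the members' median to 0.059, beside 0.071 over all tested genes. The members' share without mitochondrial and stable noncoding genes was 0.175% in SW-113 and 0.173% in SW-138. Leaving out each library gave 0 (without SW-113 replicate 3) to 4 members past the threshold and medians of -0.04 to 0.03; the test then has fewer libraries, and 303 to 1616 of all genes passed. Replicate numbers are shared by the compounds only as numbers: deviations of same-numbered libraries correlated at 0.05, 0.21 and 0.05, and not every library correlated best with its own number. The replicate block gave 6 members (3 higher and 3 lower, adding GAS5 and SNHG3) and 2363 genes in all; with length and GC offsets as well it gave 11 members (9 higher and 2 lower) and 2338 genes in all (13.8%), with 5 of the 10 H/ACA hosts higher. The sign changed for members near 0, none of them called: EPB41L4A-AS1 (0.053) and SNHG7 (0.050) with total count alone, SNHG21 with 1 count in 1 library (-0.0037) and limma-voom (-0.0066), and SNHG7 (0.00088) with the block and offsets. Leaving out a library gave -0.086 to 0.051 for SNHG7, -0.089 to 0.053 for SNHG21, -0.017 to 0.044 for SNHG22, -0.081 to 0.056 for EPB41L4A-AS1 and -0.038 to 0.20 for SNHG14. The cause of these changes was not tested. Depth limits SNHG9 and SNHG25, at under 1 CPM.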

Other observations

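Several rows carry an older name for a gene whose current symbol is SNHG plus a number and so were not members. LRRC75A-AS1, now SNHG29, had 604 ± 40.1 CPM in SW-113 and 511 ± 16.4 CPM in SW-138 (SD, n = 3 each) and was lower (log2 fold change -0.24 ± 0.06 (SE); edgeR, Benjamini-Hochberg adjusted p = 0.0392). GAS5 had 357 and 316 CPM at a median spliced length of 598.5 bases, against 923.5 bases for LRRC75A-AS1. The ranks by level given above cover the members only. C6orf48, now SNHG32, had 157 ± 15.9 and 139 ± 12.2 CPM (SD, n = 3 each; log2 fold change -0.17; edgeR adjusted p = 0.253). With these rows added, a choice made after seeing the data, 5 of 32 tested genes passed, 2 higher and 3 lower, with a median of -0.02.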
